A study of Mus musculus with 15 samples.

Results

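The immediate early genes described here are 10 genes of cell activation, Fos, Fosb, Jun, Junb, Jund, Atf3, Egr1, Nr4a1, Ier2 and Dusp1. They were matched by symbol to 10 of the 38924 Ensembl identifiers in the deposited counts, and all 10 passed the filter of more than 1 CPM (counts scaled to library size) in at least 3 libraries, with 103 to 27081 counts of a gene in a library. The 15 murine libraries came from 5 sorted subtypes of mononuclear phagocyte, with 3 libraries each. They were splenic CD8+ dendritic cells (DCs), splenic CD4+ DCs, splenic Ly6C+ monocytes, and the CD103+ and CD11b+ DCs of the lymph nodes (LNs) that drain the lung. CD8+ and CD103+ DCs belong to the DC1 lineage, and CD4+ and CD11b+ DCs to the DC2 lineage. Each library was a pool of 5 naive C57BL/6 mice, all female, untreated and without a transgene, and the sample descriptions give an age of 6 to 8 weeks.

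Immediate early genes are transcribed within minutes of a signal from a receptor, from stress or from handling, without new protein synthesis, by factors that already sit on their promoters and are phosphorylated by MAP kinases. Most encode transcription factors that switch on a later wave of genes. Their mRNAs are short lived, and in DCs and monocytes they are known to respond to microbial products, to adhesion and to tissue dissociation.

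How the cells were obtained sets what these levels can be read as. All 5 subtypes went through digestion with collagenase D at 2.5 mg/ml, bead enrichment and sorting before lysis. DCs were enriched with beads against CD11c and monocytes with beads against CD11b. LNs and spleens came from different cohorts, and the gate for LN DCs asked for high MHC class II, so organ, cohort and gate cannot be told apart. Neither can cell type and bead for monocytes against DCs, to which organ, cohort and gate are added against LN DCs. No library of undigested tissue or unsorted cells is analysed here, and the part of digestion and sorting in the levels was not tested.

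The libraries held 4531243 to 10233914 counts on genes. Ly6c2, Ccr2, Csf1r, Cd14 and Itgam summed to 6322 to 6954 CPM in monocytes and to at most 1105 CPM in any DC library. DC1 genes were highest in splenic CD8+ DCs (3748 to 5870.5 CPM), then LN CD103+ DCs (812 to 1142), with at most 594 elsewhere. DC2 genes had 1571 to 2660 CPM in splenic CD4+ DCs, 792 to 880 in LN CD11b+ DCs and at most 176 in DC1 subtypes. Monocytes, at 2282 to 2599 CPM, lay within the splenic CD4+ range. Itgae, which encodes CD103, had a lower mean in LN CD103+ (27.2 CPM) than in splenic CD8+ DCs (107). So did the MHC class II gene H2-Ab1 (1765.5 against 19138), despite the LN gate. Genes of migratory DCs (Ccr7, Fscn1, Ccl22 and Cacnb3) summed to 6283 to 14526 CPM in LN DCs and to 156 to 361 CPM in splenic DCs. Of 6 neutrophil genes, which summed to 409 to 454 CPM in monocytes and to at most 115 CPM in DCs, Csf3r made up 371 to 400 CPM in monocytes and S100a8 35.8 to 53.2 CPM. The other 4 were at or near 0 there, with Ly6g, Retnlg and Cxcr2 at most at 0.972 CPM and Mmp9 at 0. The 6 macrophage genes summed to 332 to 708 CPM in LN CD11b+ DCs, 288 to 384 CPM in monocytes, 155 to 238 CPM in splenic CD4+ DCs and at most 90.2 CPM in the DC1 subtypes, where LN CD103+ DCs had 24.1 to 39.1 CPM. Erythroid genes summed to 26.3 to 224 CPM in splenic DCs and to at most 55.7 CPM elsewhere, T cell genes to 67.3 to 128 CPM in LN DCs and to at most 19.5 CPM elsewhere, and B cell genes to 243.5 CPM in LN CD103+ library 1 and to at most 90.8 CPM in the others. The part of such cells in the results below was not tested, and in these bulk samples fewer cells of a type and less RNA per cell cannot be told apart.

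The 10 genes lie on autosomes, here with mm10 positions for 9. Junb (ENSMUSG00000052837, chr8:84976909-84978748, minus strand), Ier2 (ENSMUSG00000053560, chr8:84661331-84662852, minus) and Jund (ENSMUSG00000071076, chr8:70697739-70700616, plus) are on chromosome 8. The others are Fos (ENSMUSG00000021250, chr12:85473890-85477273, plus), Fosb (ENSMUSG00000003545, chr7:19302721-19310045, minus), Jun (ENSMUSG00000052684, chr4:95049034-95052222, minus) and Atf3 (ENSMUSG00000026628, chr1:191170296-191183340, minus). Nr4a1 (ENSMUSG00000023034) is at chr15:101266846-101274792 on the plus strand, Dusp1 (ENSMUSG00000024190) at chr17:26505590-26508519 on the minus strand. Egr1 is ENSMUSG00000038418. Counting did not use strand, so the 7.28% of Jun's exon length that lies over the antisense gene Junos and the 18.9% of Jund's that lies over Gm11175 cannot be told apart from those neighbours. The other 8 genes shared no exon.

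The 250 bases upstream of the start were read from RefSeq (GRCm38.p6) for 8 of the 10 genes, leaving out Egr1 and Ier2, because cyclic AMP and calcium signals are known to reach immediate early genes through the response element CRE. Its core TGACG, on either strand, was in 6 of the 8 promoters and in 17.8% of 32851 promoters of the same length. The full CRE, TGACGTCA, was in the Dusp1 promoter alone, where it overlaps one of the cores, and in 1.55% of all promoters. The EGR site GCGNGGGCG was in the promoters of Fosb and Nr4a1 and in 4.70% of all, and the AP-1 site TGANTCA, the NR4A site AAAGGTCA and the CArG box of serum response factor were in none of the 8. Bases farther upstream were not searched, so a site there would be missed. Shown are the promoters of 5 of the 6 genes that were higher in monocytes, and of Dusp1, which carries the CRE, with TGACG or its complement in capitals. Fos is at chr12:85473640-85473889 (plus strand), Junb at chr8:84978749-84978998 (minus), Jund at chr8:70697489-70697738 (plus), Nr4a1 at chr15:101266596-101266845 (plus), Atf3 at chr1:191183334-191183583 (minus) and Dusp1 at chr17:26508520-26508722 (minus).
Fos: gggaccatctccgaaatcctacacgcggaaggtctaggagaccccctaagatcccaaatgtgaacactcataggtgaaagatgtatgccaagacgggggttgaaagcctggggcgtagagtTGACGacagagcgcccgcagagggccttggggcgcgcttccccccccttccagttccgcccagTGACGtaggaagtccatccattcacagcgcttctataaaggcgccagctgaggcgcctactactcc
Junb: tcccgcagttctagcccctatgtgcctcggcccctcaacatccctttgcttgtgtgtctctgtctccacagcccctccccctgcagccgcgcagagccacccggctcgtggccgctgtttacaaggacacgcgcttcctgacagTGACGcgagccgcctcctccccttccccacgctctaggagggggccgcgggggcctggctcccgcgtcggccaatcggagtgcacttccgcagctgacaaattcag
Jund: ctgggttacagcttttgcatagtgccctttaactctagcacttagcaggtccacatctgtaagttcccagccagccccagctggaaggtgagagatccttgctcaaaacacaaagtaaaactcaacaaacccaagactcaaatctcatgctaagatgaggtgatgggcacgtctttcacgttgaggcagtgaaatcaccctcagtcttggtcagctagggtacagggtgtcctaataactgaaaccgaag
Nr4a1: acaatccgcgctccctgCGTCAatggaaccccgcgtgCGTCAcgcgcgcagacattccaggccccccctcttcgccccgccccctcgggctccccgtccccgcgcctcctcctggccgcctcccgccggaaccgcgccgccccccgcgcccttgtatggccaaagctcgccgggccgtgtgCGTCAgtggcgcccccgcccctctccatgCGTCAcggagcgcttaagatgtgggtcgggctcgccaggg
Atf3: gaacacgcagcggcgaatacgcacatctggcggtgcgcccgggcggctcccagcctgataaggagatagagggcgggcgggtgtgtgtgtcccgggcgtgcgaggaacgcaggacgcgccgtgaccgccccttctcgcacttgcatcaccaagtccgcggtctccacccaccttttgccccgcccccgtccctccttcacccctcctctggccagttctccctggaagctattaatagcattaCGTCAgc
Dusp1: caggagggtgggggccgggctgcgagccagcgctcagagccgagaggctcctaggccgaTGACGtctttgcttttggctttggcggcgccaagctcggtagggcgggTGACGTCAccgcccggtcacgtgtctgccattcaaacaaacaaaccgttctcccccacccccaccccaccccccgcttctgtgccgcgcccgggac
Fos has 2 cores, 129 and 66 bases before the start, and Nr4a1 has 4, at 233, 213, 69 and 40 bases. Junb has 1 at 106 bases, while Jund has none in this window. The core of Atf3, 7 bases before the RefSeq start, lies in the last 7 bases of its window, which are inside the counted gene. Dusp1 has 2, at 191 and 143 bases, the nearer within the CRE. The Dusp1 window is cut to 203 bases since its last 47 lie in the counted gene, and the other 6 windows searched do not reach into their counted genes. A match of letters is not evidence of binding.

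Immediate early mRNA was abundant in all 5 subtypes. On the length-corrected TPM scale, the mean of a gene in a subtype ranged from 18.4 for Egr1 in LN CD103+ DCs to 2571 for Junb in monocytes. Of the 10 genes, 9 passed the F test of edgeR's quasi-likelihood model over the 5 subtypes at an adjusted p of 0.05, as did 73.5% of the 14456 genes tested. Fosb did not, with an adjusted p of 0.521. Of the 40 pairs of neighbours in the 10 orders of subtype means, 10 differed at that threshold, and 6 of these set monocytes above the DC subtype with the next highest mean. The like share over all genes was not computed, so these counts are descriptions.

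**Figure D1:**
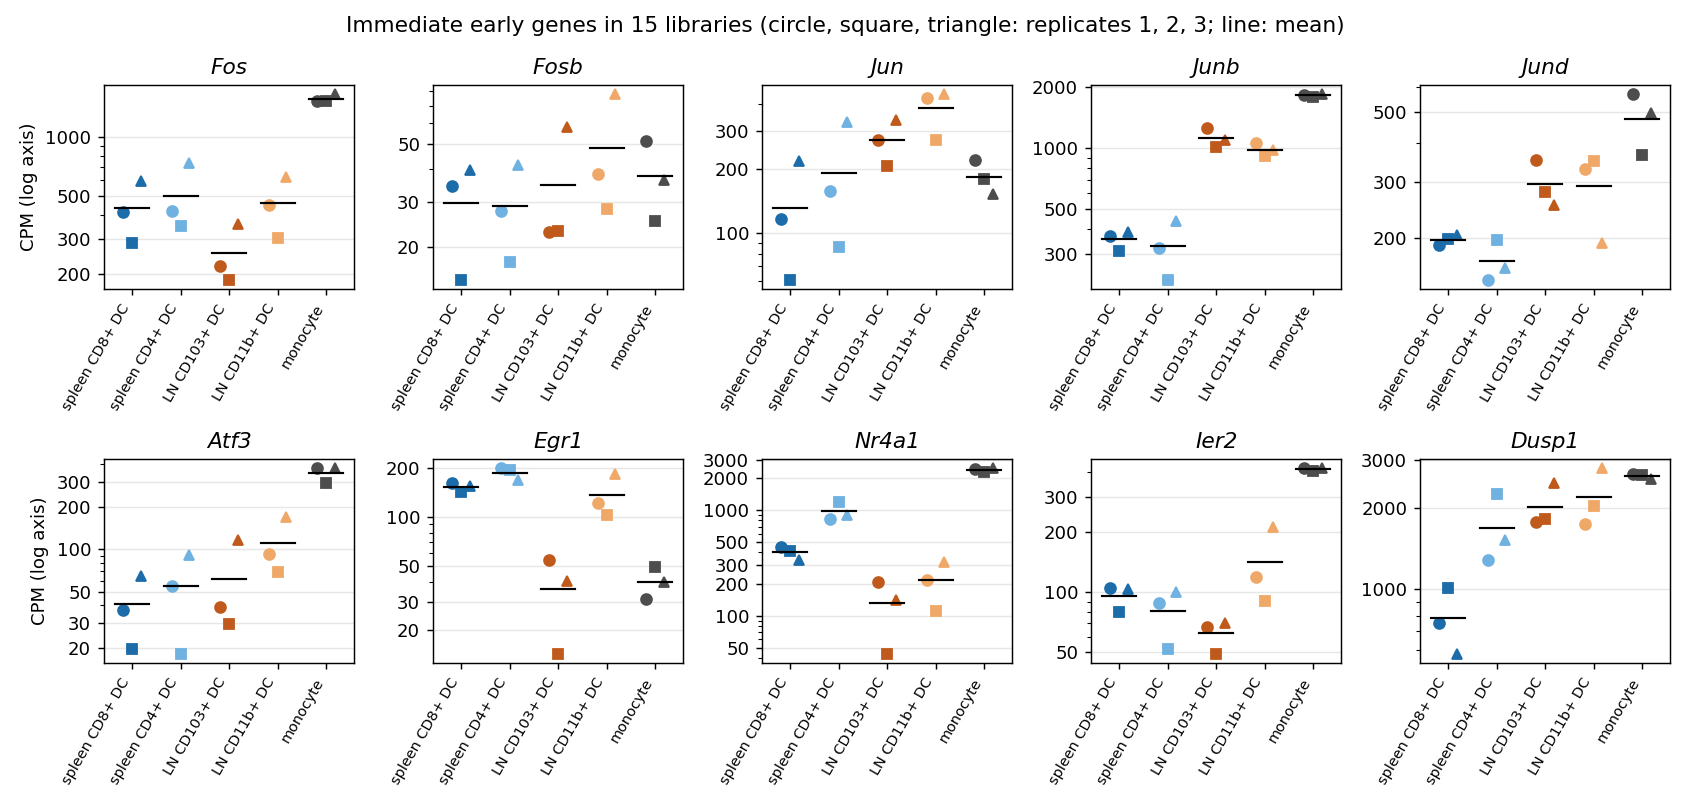
CPM (log axis) of each of the 10 genes in each of the 15 libraries, by subtype, with circles, squares and triangles for libraries 1, 2 and 3 and a line at the subtype mean. Monocytes lie above every DC library for Fos, Junb, Jund, Nr4a1, Atf3 and Ier2, and below most of them for Egr1, while the 4 DC subtypes overlap for Fos.

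The Fos proteins Fos and Fosb cannot pair with themselves and form AP-1, a dimeric transcription factor, with a Jun protein. Fos was at 1514, 1519.5 and 1646 CPM in monocytes. In the spleen it was at 412, 287 and 595 CPM in CD8+ DCs and at 417, 349 and 735 CPM in CD4+ DCs. In the LN it was at 219, 186 and 359 CPM in CD103+ DCs and at 449.7, 305 and 621 CPM in CD11b+ DCs. Every monocyte library lay above every DC library, and all pairs of DC subtypes overlapped. The fitted log2 fold change of monocytes over a DC subtype was 1.64 to 2.62 (3.12-fold to 6.14-fold, largest adjusted p 0.00049). The order of means was monocytes, splenic CD4+ DCs, LN CD11b+ DCs, splenic CD8+ DCs and LN CD103+ DCs, and only the first step passed the test. LN CD103+ DCs were below splenic CD4+ DCs (log2 fold change -0.98, SE 0.32, adjusted p 0.019), a call lost without splenic CD4+ library 3 (-0.59, adjusted p 0.140) and without LN CD103+ library 1 or 2 (-0.87 and -0.79).

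Fosb, a close relative of Fos, was far lower and passed the test in none of the comparisons. It was at 51.3, 25.3 and 36.4 CPM in monocytes, at 34.3, 14.98 and 39.9 CPM in splenic CD8+ DCs and at 27.7, 17.6 and 41.6 CPM in splenic CD4+ DCs. In the LN it was at 22.9, 23.2 and 58.2 CPM in CD103+ DCs and at 38.4, 28.0 and 77.8 CPM in CD11b+ DCs. The libraries of every pair of subtypes overlapped, and the spread within a subtype was 34.7% to 58.4% of its mean. Per length, Fos made up 90.6% to 95.3% of the summed TPM of the Fos family (Fos, Fosb, Fosl1 and Fosl2) as a subtype mean. Fosb made up 7.50% ± 1.53 (SD, n = 3) of it in LN CD103+ DCs and 1.44% ± 0.511 in monocytes, Fos and not Fosb being the higher in monocytes.

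The Jun proteins bind DNA as dimers with each other or with Fos and ATF proteins. Junb, which often restrains the growth functions of Jun, showed 3 separate levels. It was at 1839.8, 1803 and 1852 CPM in monocytes. It was at 1263, 1017 and 1098 CPM in LN CD103+ DCs and at 1062, 915 and 983 CPM in LN CD11b+ DCs. The splenic DCs had 367, 311 and 387 CPM (CD8+) and 321, 224 and 438 CPM (CD4+). Neither DC lineage nor library crossed these levels: every LN DC library lay above every splenic DC library, as for 12.4% of all genes, and below every monocyte library. Junb was 3.17-fold higher in LN than in splenic DC1 (log2 fold change 1.67, SE 0.22, adjusted p 4.49e-06) and 3.01-fold higher in LN than in splenic DC2 (1.59, SE 0.22, adjusted p 1.41e-05). Monocytes exceeded the DC subtypes by 0.70 to 2.48 on the log2 scale (1.63-fold to 5.59-fold).

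Jund, which in most cells is present before any signal, followed the same order over a smaller range. It was at 569, 365 and 497 CPM in monocytes, at 353, 280.2 and 255 CPM in LN CD103+ DCs and at 331, 350.4 and 193 CPM in LN CD11b+ DCs. It was at 190.2, 199 and 204 CPM in splenic CD8+ DCs and at 147, 197 and 161 CPM in splenic CD4+ DCs. Monocytes were above every DC library, LN CD103+ DCs were above all splenic DCs, and LN CD11b+ library 3 reached down into the splenic range. Monocytes were 1.61-fold to 2.83-fold higher, and the calls against the LN DCs (0.69 and 0.71 on the log2 scale) were lost without monocyte library 1 (0.54 and 0.56), without LN CD103+ library 2 or 3 for the first (0.64 and 0.59), and without LN CD11b+ library 3 for the second (0.48). In raw counts, Jund had 874 to 3774 in a library, and Gm11175, which overlaps Jund, had 68 to 817. The sum of Gm11175 counts, not scaled to library size, was 2155 in monocytes and 461 to 1311 in the DC subtypes.

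Jun, the founding member of the family and an activator of its own gene, did not share that order. It was at 428, 274 and 446 CPM in LN CD11b+ DCs and at 272, 205 and 337 CPM in LN CD103+ DCs. It was at 219.7, 179 and 153 CPM in monocytes, at 158, 86.3 and 332 CPM in splenic CD4+ DCs and at 116, 60.6 and 218 CPM in splenic CD8+ DCs. The splenic DC libraries spread over more than the distance between most subtypes, and no 2 neighbours in the order of means differed. Jun was lower in monocytes than in LN CD11b+ DCs, without overlap (log2 fold change -1.06, SE 0.42, adjusted p 0.0443), a call lost when any of the 3 monocyte libraries, LN CD11b+ library 1 or 3, or splenic CD4+ library 1 was left out (-1.20 to -0.94, adjusted p 0.0506 to 0.136).

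Per length, Junb made up the largest share of the Jun family in each subtype. It was 81.8% ± 2.67 (SD, n = 3) of the summed TPM of Jun, Junb and Jund in monocytes, 76.5% ± 0.977 and 70.8% ± 1.15 in LN CD103+ and CD11b+ DCs, and 64.0% ± 3.28 and 59.7% ± 3.69 in splenic CD8+ and CD4+ DCs. Jun made up 4.72% ± 0.767 in monocytes and 10.6% to 18.9% in the DC subtypes. Jund made up 23% and 21.4% in splenic CD8+ and CD4+ DCs and 12.8% to 13.5% in the others. These shares were not tested.

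**Figure D2:**
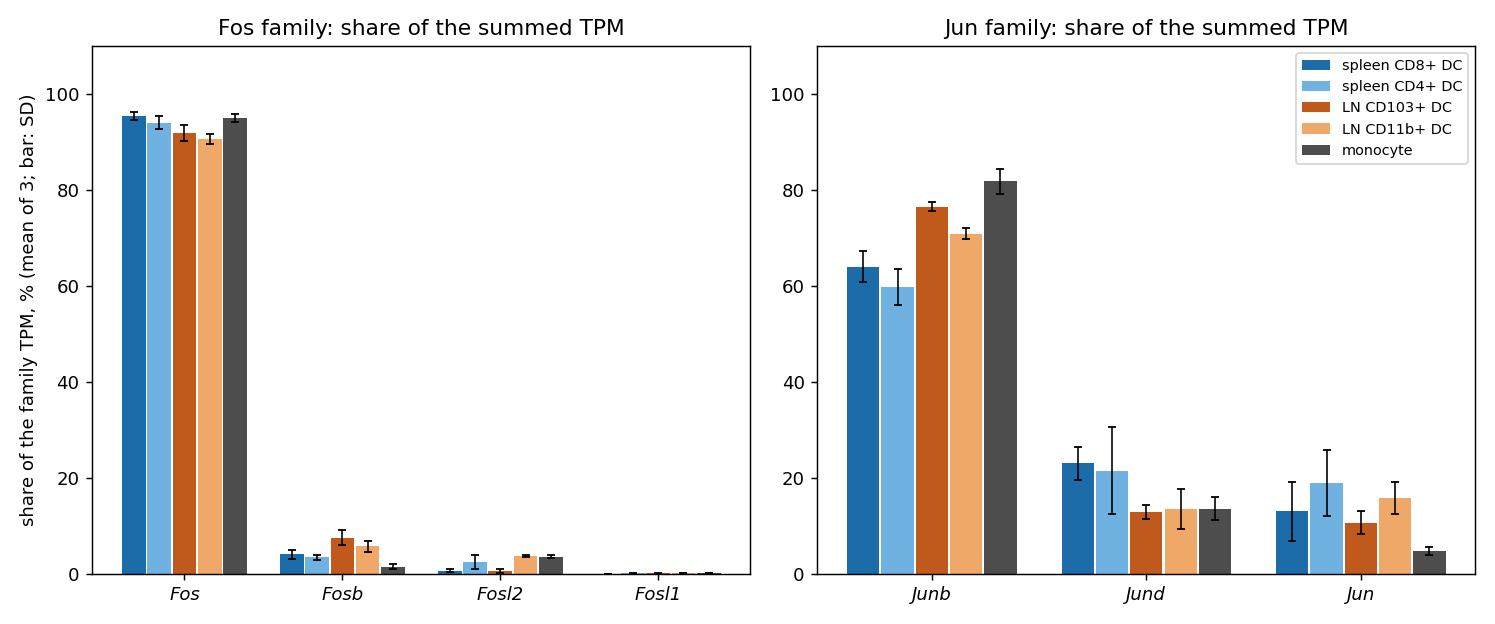
Share of the summed TPM of the Fos family and of the Jun family taken by each gene (%), as the mean of 3 libraries with bars for 1 SD, by subtype. Fos is above 90% of its family in each subtype, and Junb ranges from 59.7% in splenic CD4+ DCs to 81.8% in monocytes.

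Atf3, a stress-induced relative of the AP-1 proteins that damps Toll-like receptor responses, was highest in monocytes. It was at 376, 292 and 375 CPM there. It was at 92.1, 69.2 and 169 CPM in LN CD11b+ DCs and at 39.1, 29.6 and 116 CPM in LN CD103+ DCs. The splenic DCs had 37.4, 19.6 and 65.2 CPM (CD8+) and 55.0, 18.2 and 91.6 CPM (CD4+). All monocyte libraries lay above all DC libraries, while within each DC subtype library 3 was the highest and library 2 the lowest. Monocytes exceeded the DC subtypes by 1.66 to 3.09 on the log2 scale (3.17-fold to 8.52-fold), and the smallest of these, against LN CD11b+ DCs (SE 0.53, adjusted p 0.0148), was lost without LN CD11b+ library 1 or 2 (1.55 and 1.41, adjusted p 0.0551 and 0.0706).

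Ier2 encodes a small nuclear protein that is a classical serum response gene. It was at 421, 405 and 418 CPM in monocytes. It was at 105, 79.6 and 104 CPM in splenic CD8+ DCs and at 88.3, 52.2 and 100.2 CPM in splenic CD4+ DCs. In the LN it was at 67.1, 49.3 and 70.2 CPM in CD103+ DCs and at 120.0, 90.5 and 213 CPM in CD11b+ DCs. The SD of the monocyte libraries was 2.03% of their mean, and all 3 lay above every DC library, and the LN CD103+ libraries lay below those of both CD8+ and LN CD11b+ DCs. Monocytes exceeded the DC subtypes by 1.56 to 2.74 on the log2 scale (2.94-fold to 6.67-fold, largest adjusted p 0.00015).

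Nr4a1 encodes the orphan nuclear receptor NUR77, which is used as a marker of antigen receptor signalling in lymphocytes and is needed for the patrolling monocytes that arise from Ly6C+ monocytes. It had the widest range of the 10 genes between these subtypes. It was at 2422, 2272 and 2502 CPM in monocytes, at 820.0, 1188 and 907 CPM in splenic CD4+ DCs and at 450.0, 411 and 338 CPM in splenic CD8+ DCs. In the LN it was at 218, 111 and 322 CPM in CD11b+ DCs and at 209.9, 44.0 and 142 CPM in CD103+ DCs. Monocyte, splenic CD4+ and splenic CD8+ libraries formed 3 ranges without overlap, and every LN DC library lay below every splenic DC library, as for 7.50% of all genes. Nr4a1 is the one member of the 10 with this last pattern, opposite to Junb.

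Monocytes exceeded the other subtypes in Nr4a1 by 1.30 (splenic CD4+ DCs, SE 0.40, adjusted p 0.0119) to 4.19 (LN CD103+ DCs, SE 0.45, adjusted p 2.53e-07) on the log2 scale. That is 2.47-fold to 18.2-fold. The lowest library, LN CD103+ library 2 at 44.0 CPM, had the most counts of the DC libraries (9683795), and without it the log2 fold change against LN CD103+ DCs was 3.77. Nr4a1 was lower in LN than in splenic DC1 (log2 fold change -1.60, SE 0.41, adjusted p 0.00328) and lower in LN than in splenic DC2 (-2.16, SE 0.41, adjusted p 0.00046). Within the spleen it was lower in CD8+ than in CD4+ DCs (-1.28, SE 0.40, adjusted p 0.0227), a call lost without CD8+ library 3 (-1.17, adjusted p 0.0853) or CD4+ library 2 (-1.11, adjusted p 0.0829).

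Egr1 encodes a zinc finger factor that binds GC-rich promoters and is induced by MAP kinase signals in most cells. Unlike the 6 genes that were higher in monocytes, it was highest in splenic DCs. Among the DC subtypes its order of means was that of Nr4a1. It was at 201, 195 and 169 CPM in splenic CD4+ DCs, at 161, 143 and 155 CPM in splenic CD8+ DCs and at 122, 103 and 185 CPM in LN CD11b+ DCs. It was at 31.1, 49.2 and 39.7 CPM in monocytes and at 54.1, 14.4 and 40.3 CPM in LN CD103+ DCs. The libraries of these last 2 subtypes overlapped each other and lay below all 9 others. Monocytes were below splenic CD8+ DCs (log2 fold change -1.93, SE 0.33, adjusted p 0.00012), splenic CD4+ DCs (-2.23, SE 0.34, adjusted p 2.91e-05) and LN CD11b+ DCs (-1.77, SE 0.33, adjusted p 0.00025). Against LN CD103+ DCs the log2 fold change was 0.15 (95% interval -0.54 to 0.84, adjusted p 0.724), and it turned to -0.24 without LN CD103+ library 2 and to -0.02 without monocyte library 2.

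Dusp1 encodes a nuclear phosphatase that removes the activating phosphates from p38 and JNK and so limits the signal that induced it. Per length it had the highest mean of the 10 genes in all 4 DC subtypes, from 695 ± 179 TPM (SD, n = 3) in splenic CD8+ DCs to 1962 ± 593 TPM in LN CD11b+ DCs. It was at 754, 1011 and 579.5 CPM in splenic CD8+ DCs and at 1283, 2239 and 1514 CPM in splenic CD4+ DCs. In the LN it was at 1774, 1807 and 2470.0 CPM in CD103+ DCs and at 1740.4, 2030.1 and 2796 CPM in CD11b+ DCs, and in monocytes at 2664, 2632 and 2542 CPM. Splenic CD8+ DCs stood below each of the other subtypes without overlap, and the remaining libraries lay between 1283 and 2796 CPM. Dusp1 was lower in splenic CD8+ than in CD4+ DCs (log2 fold change -1.10, SE 0.26, adjusted p 0.0034). Monocytes were above splenic CD8+ DCs by 1.74 (SE 0.26, adjusted p 2.3e-05). Above splenic CD4+ DCs they were by 0.64 (SE 0.25, adjusted p 0.0451), a call lost without any of the 3 monocyte libraries, splenic CD4+ library 1 or 3, splenic CD8+ library 1 or 2, LN CD103+ library 2 or LN CD11b+ library 2 (0.48 to 0.66, adjusted p 0.0526 to 0.167).

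The comparison of Ly6C+ monocytes with DCs asks how these cell types differ, together with the beads used to enrich them. Only monocyte libraries were read in 2 runs. Against the LN DCs, organ, cohort and gate differed as well. The parts of these were not tested. Of the 10 genes, 7 were higher and 1 was lower in monocytes than in splenic CD8+ DCs, where 20.4% of all genes were higher and 21.7% lower (42.1% called). Against splenic CD4+ DCs the count was again 7 higher and 1 lower (23.8% of all genes higher, 24.2% lower, 48.0% called). Against LN CD103+ DCs 6 were higher and none was lower (24.6% higher, 28.6% lower, 53.2% called), and against LN CD11b+ DCs 6 were higher and 2 lower (21.3% higher, 26.5% lower, 47.8% called). Fos, Junb, Jund, Nr4a1, Atf3 and Ier2 were higher in all 4, as were 9.35% of all genes. Each of these 6 also had every monocyte library above every DC library, and 9.27% of all genes passed both criteria. The 4 comparisons share the 3 monocyte libraries. The median log2 fold change of the 10 genes was 1.80, 1.40, 0.69 and 0.80 in the 4 comparisons, in the order given, and that of all genes was -0.07 to -0.01.

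**Figure D3:**
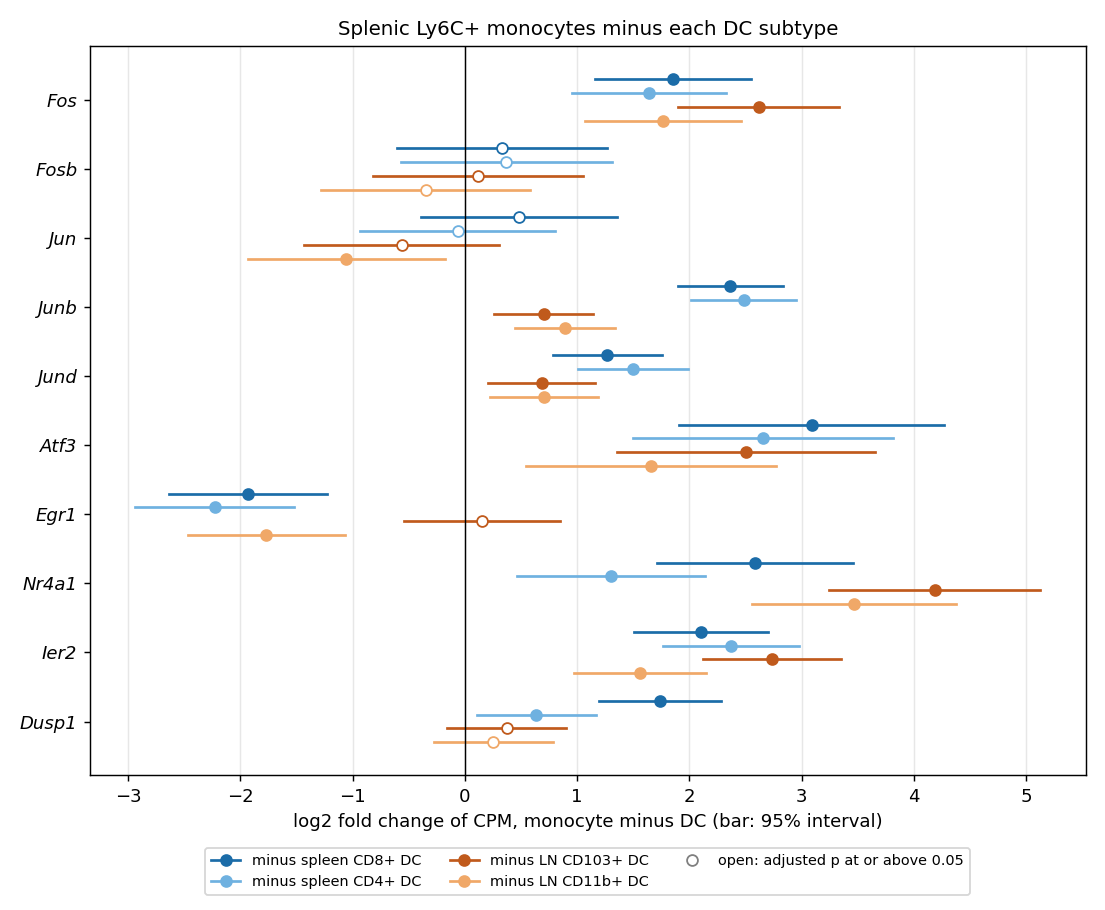
Fitted log2 fold change (monocytes minus a DC subtype) of the 10 genes in 4 comparisons, with 95% intervals, filled where the adjusted p is under 0.05. Fos, Junb, Jund, Nr4a1, Atf3 and Ier2 are filled on the right of 0 in all 4, Egr1 is filled on the left in 3 of 4, and Fosb is filled in none.

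The comparison of LN with splenic DCs sets migratory against resident cells of one lineage, together with the difference in cohort and gate. In DC1, 4 of the 10 genes were higher in LN (Junb, Jun, Jund and Dusp1) and 2 lower (Nr4a1 and Egr1), where 45.6% of all genes were called. In DC2, 3 were higher in LN (Junb, Jund and Ier2) and 1 lower (Nr4a1), where 33.1% of all genes were called. Both counts are near those shares. Among the AP-1 genes, Junb and Jund were higher in LN in both lineages and Fos passed the test in neither. The log2 fold change of Fos in DC1 was -0.76 (95% interval -1.44 to -0.08, adjusted p 0.0621). It passed without the 4 DC libraries numbered 3 (-0.79, adjusted p 0.0148) and without a filter on low counts (-0.77, adjusted p 0.00371).

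In DC1, Egr1 was 4.23-fold lower in LN (log2 fold change -2.08, SE 0.34, adjusted p 5.48e-05) and Dusp1 2.58-fold higher (1.37, SE 0.26, adjusted p 0.00025). Neither change passed in DC2, where Egr1 gave -0.46 (95% interval -1.13 to 0.21) and Dusp1 0.38 (95% interval -0.15 to 0.91). The calls of Jun and Jund in DC1 were near the threshold (1.04 and 0.58, adjusted p 0.0495 and 0.0443). That of Jun was lost on leaving out all but 4 of the 15 libraries in turn (0.67 to 1.05, adjusted p 0.0504 to 0.223), and that of Jund without any splenic CD8+ library, LN CD103+ library 1 or 2 or monocyte library 3 (0.44 to 0.62, adjusted p 0.0556 to 0.172).

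In DC2, Ier2 was higher in LN by 0.81 (SE 0.28, adjusted p 0.0312), a call lost without LN CD11b+ library 3 (0.39, adjusted p 0.260) or splenic CD4+ library 2 (0.58, adjusted p 0.138). Jund was higher by 0.79 (SE 0.23, adjusted p 0.0121), lost without LN CD11b+ library 1 or 2 (0.69 and 0.64, adjusted p 0.0520 and 0.0643). Libraries of the same number in these subtypes deviated together, though LNs and spleens came from different cohorts and these libraries share only a number. With the replicate number as a block, 7 of the 10 genes were called in DC2, beside 37.0% of all genes with that block, the added ones being Jun (1.13, adjusted p 0.00525), Atf3 (1.12, adjusted p 0.00406) and Fosb (0.69, adjusted p 0.0496), all higher in LN. Without the block Jun gave 0.99 (95% interval 0.12 to 1.87, adjusted p 0.0763).

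**Figure D4:**
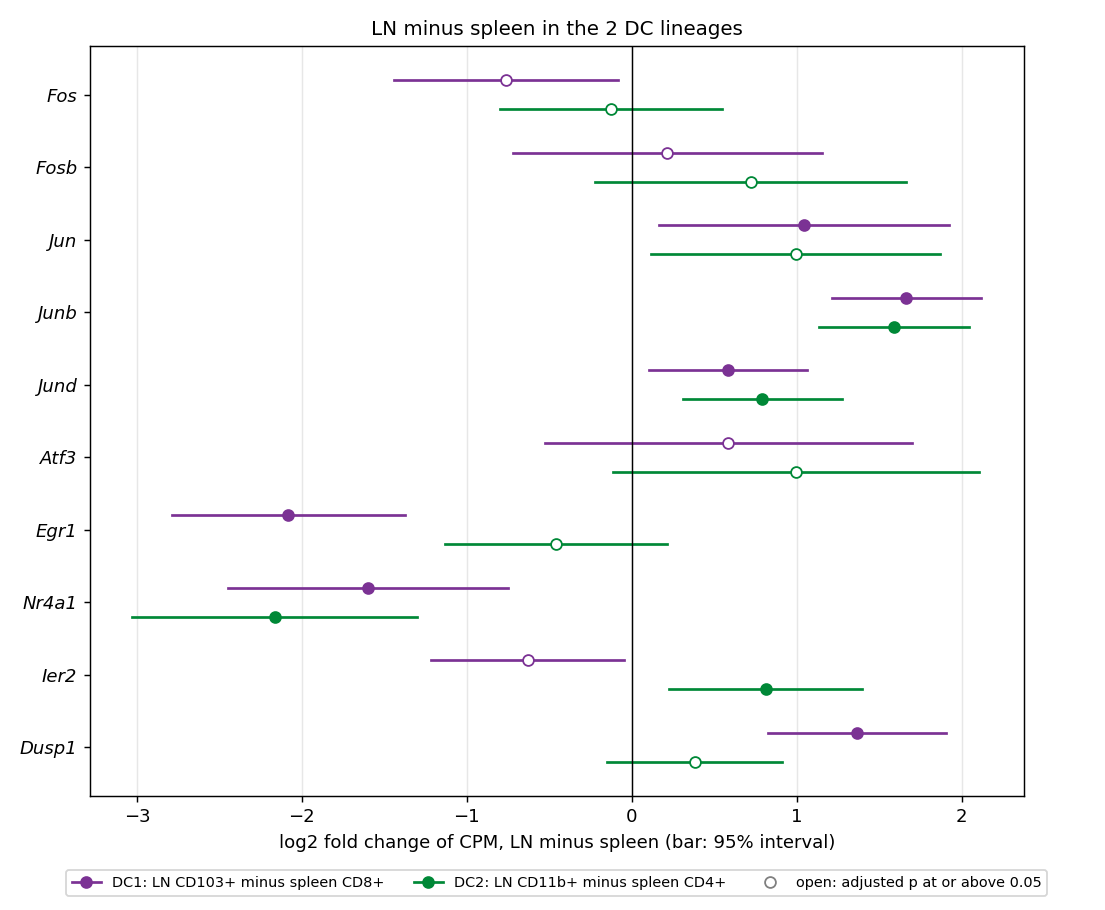
Fitted log2 fold change (LN minus spleen) of the 10 genes in DC1 (CD103+ minus CD8+) and DC2 (CD11b+ minus CD4+), with 95% intervals, filled where the adjusted p is under 0.05. Junb lies right of 0 and Nr4a1 left of 0 in both lineages, and Egr1 lies far left of 0 in DC1 alone.

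Whether the organ difference itself depended on the lineage was tested by an interaction term, which 2 of the 10 genes passed, Egr1 and Ier2, as did 11.2% of all genes. For Egr1 the LN minus spleen difference was lower in DC1 than in DC2 by -1.62 on the log2 scale (SE 0.46, adjusted p 0.0276), with the LN CD103+ DCs as the low group. Its call was lost without splenic CD8+ library 1 (-1.58, adjusted p 0.0501) or LN CD11b+ library 3 (-1.34, adjusted p 0.07), and the value was -1.23 without LN CD103+ library 2. For Ier2 the difference was -1.44 (SE 0.39, adjusted p 0.0222), with the LN CD11b+ DCs as the high group, and was lost without LN CD11b+ library 3 (-1.02, adjusted p 0.0610) or LN CD103+ library 2 (-1.30, adjusted p 0.0706). Dusp1 gave 0.99 (95% interval 0.24 to 1.73, adjusted p 0.086). With the replicate number as a block Dusp1 passed as well (0.98, adjusted p 0.0499), making 3 of the 10 genes beside 14.9% of all genes, and it also passed without a filter (0.99, adjusted p 0.0287).

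Across lineage and organ, 5 of the 10 genes differed between LN CD103+ and splenic CD4+ DCs, where 47.0% of all genes were called. Junb and Jund were higher there, and Fos, Nr4a1 and Egr1 lower. Between LN CD11b+ and splenic CD8+ DCs 4 differed, Junb, Jun, Atf3 and Dusp1, all higher in LN, where 39.9% of all genes were called. The call of Atf3 was lost in DESeq2 (1.48, adjusted p 0.0652), in limma with either pseudocount (1.47 and 1.49, adjusted p 0.0796 and 0.0876) and without splenic CD8+ library 1 or 2 or LN CD11b+ library 1 or 3 (0.99 to 1.54, adjusted p 0.0518 to 0.187).

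Between lineages, 2 of the 10 genes differed in each organ. In the spleen these were Nr4a1 and Dusp1, both lower in CD8+ than in CD4+ DCs, where 27.4% of all genes were called. In the LN they were Egr1 and Ier2, both lower in CD103+ than in CD11b+ DCs, where 12.9% of all genes were called. Egr1 was 3.78-fold lower (log2 fold change -1.92, SE 0.34, adjusted p 0.00065). Ier2 was 2.27-fold lower (-1.18, SE 0.28, adjusted p 0.00775), lost without LN CD11b+ library 3 (-0.76, adjusted p 0.0636) or LN CD103+ library 2 (-1.04, adjusted p 0.0540). With the replicate number as a block 4 were called in the LN, beside 16.2% of all genes, Fos (-0.85, adjusted p 0.00369) and Atf3 (-0.97, adjusted p 0.0218) being added. Without the block Fos gave -0.85 (95% interval -1.53 to -0.17, adjusted p 0.0967). Macrophage genes, as given above, also differed between these LN subtypes, and their part in these values was not tested.

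Several of the genes varied with the library number within the DC subtypes. Among the 12 DC libraries, library 3 was the highest of its subtype in all 4 subtypes for Fos, Fosb, Jun and Atf3, a pattern that 5.03% of all genes had. Library 2 was also the lowest in all 4 for Fos, Jun and Atf3, as for 0.858% of all genes. Junb and Ier2 also had library 2 lowest in all 4, but not library 3 highest in all. In a fit of the DC libraries with the library number beside the subtype, chosen after the data were seen, 5 of the 10 genes passed the F test of the number, as did 4.73% of all genes. Library 3 exceeded library 2 by 1.79 on the log2 scale for Atf3 (adjusted p 0.00296), by 1.36 for Fosb (0.00988), by 1.30 for Jun (0.00988), by 1.02 for Fos (0.00566) and by 0.77 for Ier2 (0.0373).

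Junb (0.37), Jund (-0.31), Egr1 (0.48), Nr4a1 (0.51) and Dusp1 (-0.11) did not pass, the feedback phosphatase and both of the other Jun genes among them. The genes that passed were those of the 2 Fos proteins, Jun, Atf3 and Ier2, and Fosb passed here but not in the test over the subtypes. Beside this, the share of uniquely mapped reads in no exon was highest in the 2 LN libraries numbered 3 (30.7% and 30.6%, against 17.6% to 28.4% in the other 13), while among the splenic DCs the libraries numbered 3 had the lowest share of their subtype. What the same number stands for is not given in the labels, and its part in these levels was not tested further. Without the 4 DC libraries numbered 3 the counts of genes called in the 4 comparisons with monocytes were 9, 7, 6 and 7, beside 8, 8, 6 and 8 with them, in the order splenic CD8+, splenic CD4+, LN CD103+ and LN CD11b+ DCs.

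**Figure D5:**
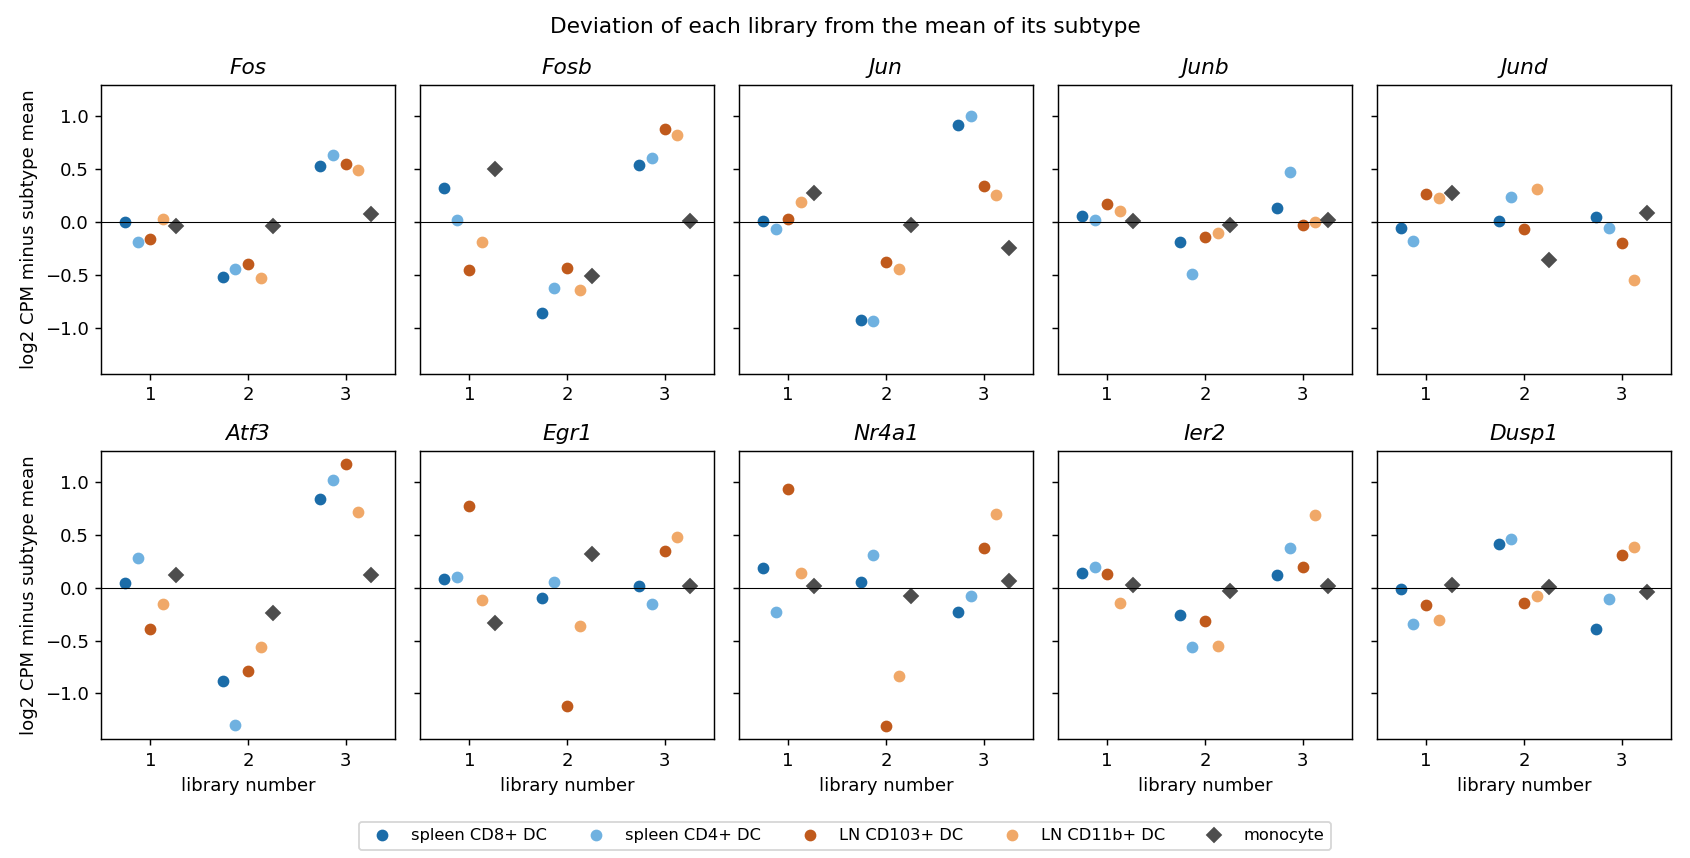
Log2 CPM minus the subtype mean for each of the 10 genes in the 15 libraries, by library number, with circles coloured by DC subtype and diamonds for monocytes. Library 3 lies above 0 and library 2 below 0 in all 4 DC subtypes for Fos, Jun and Atf3, while Junb, Jund and Dusp1 spread less or in no common direction.

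Other genes of the pathway give the setting. Of 28 further immediate early genes, 26 passed the filter (not Fosl1 and Cyr61) and 24 of these passed the F test over the subtypes, beside 73.5% of all genes. In monocytes 14 were higher and 8 lower than in splenic CD8+ DCs, 9 and 6 against splenic CD4+ DCs, 12 and 9 against LN CD103+ DCs and 8 and 10 against LN CD11b+ DCs, where 20.4% to 24.6% of all genes were higher and 21.7% to 28.6% lower. These shares stand beside the counts of the lists that follow as well. Their median log2 fold changes were 0.83, 0.48, 0.18 and -0.37 in that order, beside 1.80, 1.40, 0.69 and 0.80 for the 10 genes. Arc, best known as a synaptic gene and also active in migrating skin DCs, was at 917 ± 195 CPM (SD, n = 3) in LN CD103+ DCs and 315 ± 80.0 in LN CD11b+ DCs, and at most 9.43 ± 6.65 in the other subtypes. Gadd45b, a stress gene that acts on MAP kinase signalling, was at 1518 ± 288 and 1062 ± 329.8 CPM in the LN subtypes, and at 31.4 ± 1.60 to 184 ± 60.5 in the others. Trib1, a pseudokinase that controls degradation of C/EBP factors, was at 109 ± 6.10 CPM in splenic CD8+ DCs and 96.3 ± 14.7 in monocytes, and at 6.50 ± 1.21 in splenic CD4+ DCs.

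Among 11 partners and relatives of AP-1, 9 passed the F test, near the share of all genes. In monocytes 4 to 6 of the 11 were higher and 1 or 2 lower than in a DC subtype. Maf, a large basic leucine zipper factor related to the Fos and Jun proteins, was at 16.8 ± 1.29 CPM in monocytes and 15.6 ± 4.02 in LN CD11b+ DCs, and at 2.25 ± 0.867 in LN CD103+ DCs. Batf3, the Fos-like partner of Jun proteins needed for DC1, was at 93.8 ± 4.52 CPM in splenic CD8+ DCs and 83.6 ± 7.06 in LN CD103+ DCs, against 25.8 ± 2.39 in monocytes.

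Of 16 factors and kinases that switch immediate early genes on, 14 passed the F test, beside 73.5% of all genes. In monocytes 2 to 5 were higher and 4 to 7 lower than in a DC subtype, 8 or 9 called in all, near the 42.1% to 53.2% of all genes. Mapk14, which encodes p38 alpha, was at 598 ± 131 CPM in splenic CD4+ DCs and 26.5 ± 4.10 in LN CD103+ DCs. Rps6ka1, a kinase below ERK, had the same extremes at 379 ± 84.0 and 67.5 ± 5.81 CPM. Mapk3, which encodes ERK1, was at 41.1 ± 10.2 CPM in splenic CD8+ DCs and at 119 ± 23.4 to 205 ± 14.4 in the other subtypes. Of the phosphatases and decay factors that end the response beside Dusp1, 11 of 12 tested (13 listed) passed the F test, near that share. In monocytes 4 to 6 of them were higher and 2 to 7 lower than in a DC subtype. Dusp6, the phosphatase of ERK, was at 474 ± 38.0 CPM in monocytes and 6.40 ± 3.32 in LN CD103+ DCs. Spred1, an inhibitor of RAS to ERK signalling, was at 377 ± 64.2 CPM in LN CD103+ and 259.9 ± 35.2 in LN CD11b+ DCs, against 22.6 ± 2.26 to 72.9 ± 6.19 in the others. Zfp36l1, which marks mRNAs for decay, was at 481 ± 52.8 and 379.8 ± 31.5 CPM in the same LN subtypes, against 24.7 ± 4.14 to 80.3 ± 13.6.

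Heat shock genes are also known to respond to warm digestion, whose part in the levels below was not tested. Of 14 such genes, 7 to 10 were lower in monocytes than in a DC subtype. All 14 passed the F test over the subtypes, beside 73.5% of all genes. In monocytes at most 1 was higher than in a DC subtype, with median log2 fold changes of -1.42 to -0.86. In LN DCs 6 were higher and 1 lower than in spleen for DC1, and 5 higher and none lower for DC2. The 7 and 5 called in either direction are near the 45.6% and 33.1% of all genes, but nearly all were higher in LN. Median log2 fold changes of the list were 0.60 and 0.57, beside 0.0048 and 0.050 for all genes. Hspa1b, an inducible HSP70 gene, was at 4769 ± 414 CPM in LN CD103+ DCs and 3451 ± 689.5 in LN CD11b+ DCs, at 501 ± 151 and 604 ± 141 in splenic CD8+ and CD4+ DCs, and at 138 ± 62.6 in monocytes. Hspa1a, its near-identical copy, showed 3917 ± 385 and 3047 ± 147 CPM in the LN subtypes, and how reads were divided between the copies is uncertain. Hspa5, the chaperone of the endoplasmic reticulum, was instead at 1514 ± 120.1 CPM in splenic CD8+ DCs and at 516 ± 61.6 to 679 ± 82.6 in the others. Only Dnajb1 of the 14 passed the F test of the library number, with library 3 above library 2 by 0.90 on the log2 scale.

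Likeness of pattern was measured on log2 CPM, centred for each gene, as the root of the mean squared difference between 2 genes across the 15 libraries, among 8924 genes with a mean of at least 10 CPM. Fos and Ier2 were the most alike pair of the 10 genes (0.375), and Fosb and Jun followed (0.540). The distance is not scaled to how much a gene varies. The spread of a gene about its own mean was 0.960 for Fos and 1.016 for Ier2, but 0.616 for Fosb and 0.791 for Jun. Outside the 10, the gene most like Fos was Dgkd (0.302), that most like Ier2 was Stom (0.342) and that most like Nr4a1 was Ssh2 (0.469). The nearest to Junb was Gsdmd (0.239), to Jund Zbtb22 (0.215), to Dusp1 Fcho2 (0.246), to Atf3 Zbp1 (0.557), to Egr1 Apex1 (0.535) and to Fosb Pcnt (0.404). The nearest to Jun was Junos (0.393), the antisense gene that shares part of its exon. These distances are descriptions over libraries that share subtypes.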

How the data were processed

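RNA was measured in 15 murine libraries, each grouped by its sample title into 1 of 5 subtypes with 3 libraries. The murine alveolar and interstitial macrophages and the human samples of the study were not analysed here. Poly-A RNA was made into cDNA with a SMARTer kit and read on an Ion Torrent machine, with 2 runs for a monocyte library and 1 for a DC library. The counts per gene were made by the authors with STAR 2.4.0j on mm10 and featureCounts of Subread 1.5.2 (versions from the submitters' processing notes) over Ensembl genes, without strand and with a read over several genes counted for each, and deposited unnormalized. The authors computed the TPM values from the same counts and exon lengths. A digested, poly-A selected and amplified library can hold transcripts induced during preparation, and strand cannot be recovered.

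Libraries held 4531243 to 10233914 counts, and 17.6% to 30.7% of uniquely mapped reads lay in no exon. The variance between replicates was 5.09 to 53.6 times that of counting. The filter of more than 1 CPM in 3 or more libraries kept 14456 genes. CPM values were scaled by TMM factors (0.883 to 1.10). With edgeR 4.0.16 in R 4.3.3, the counts of all 15 libraries were fitted by a quasi-likelihood model that gives each subtype its mean (common dispersion 0.0681, residual degrees of freedom 10). Benjamini-Hochberg adjustment ran over all genes in each comparison, with a threshold of 0.05. SE is the standard error of a log2 fold change, derived in edgeR as its absolute value over the root of the quasi-likelihood F statistic. Intervals are 95% intervals built from that SE. The model was also run on simulated counts of independent libraries with a common dispersion. That run does not cover same-numbered libraries that deviate together. The pools are the unit of replication, so p-values measure the spread between pools of mice.

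All 10 genes are named. Of each further list, the 3 genes with the smallest adjusted p in the F test are named with values, except for 1 gene that is not reported here, and for each member the nearest genes are given by the measure stated with them. The members and lists were chosen with earlier results of these data known, so that their counts are descriptions and no list was tested as a set.

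Replicate numbers come from the titles, which do not say what they stand for. Deviations from the subtype means correlated between same-numbered libraries at 0.162 to 0.375 for the splenic DC pair, 0.179 to 0.259 for the LN pair, 0.197 to 0.266 for the DC2 pair and 0.118 to 0.146 for LN CD103+ and splenic CD4+ DCs, each over 0.1 for every number, and these were taken as paired. The other comparisons were not (-0.035 to 0.182). The main fit had no term for the number, so values and calls ignore this pairing unless the block is named. Alternatives were RLE size factors, DESeq2 1.42.0, no filter (23169 genes), filterByExpr (13888 genes), an added fold requirement (1 or more in absolute log2), limma 3.58.1 on log2(TPM + 1) and log2(TPM + 0.1), the replicate number as a block, a fit of the subtypes compared alone, leaving out each library, and either run of the monocytes alone. A block within the 12 DC libraries, leaving out the 4 DC libraries numbered 3 and the test of the library number were added after the data had been seen. Promoters were searched as letters on both strands, and figures were drawn with matplotlib 3.10.9.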

Additional observations from a re-analysis of the deposited data

Results flagged for a closer look

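For 2 of the 10 genes the LN minus spleen difference was not the same in DC1 and DC2 by edgeR's interaction term, Egr1 (-1.62 on the log2 scale, DC1 minus DC2, adjusted p 0.0276) and Ier2 (-1.44, adjusted p 0.0222). Of the 14 genes of the further lists given with values, 7 passed the same test of the difference. Over the full lists 5 of 26 further immediate early genes, 2 of 11 AP-1 partners and 3 of 16 inducing factors passed. So did 4 of 12 phosphatases and decay factors and 1 of 14 heat shock genes, beside 11.2% of all genes. The LN minus spleen difference was lower in DC1 for Trib1 (-4.55, adjusted p 8.52e-08), Dusp6 (-1.67, 0.0304), Hspa5 (-1.32, 0.0034) and Batf3 (-0.94, 0.0225). It was higher in DC1 for Spred1 (2.23, adjusted p 3.05e-05), Gadd45b (2.01, 0.00408) and Mapk3 (1.32, 0.00986). Trib1, the gene with the largest of these values, was at 109 ± 6.10 CPM (SD, n = 3) in splenic CD8+ DCs and 24.5 ± 4.64 in LN CD103+ DCs, but at 6.50 ± 1.21 in splenic CD4+ DCs and 34.5 ± 0.594 in LN CD11b+ DCs. The genes given with values were among the 3 of their list with the smallest F test p over the subtypes, from the same libraries. Their count can therefore not be set against the share of all genes.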

How the results depend on the processing

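Of the 55 values of a member that passed the threshold in a comparison, 37 kept their call under every alternative and none changed direction, while 19 of the 55 others passed under at least 1 alternative. In TPM the median of all genes moved by up to 0.19 (log2) for monocytes minus LN CD103+ DCs, and the member counts there stayed within 1.5 times. With the replicate block, the genes called were 7 and not 4 in LN CD11b+ minus splenic CD4+ DCs (7 also in the block of DC libraries alone). They were 4 and not 2 in LN CD103+ minus LN CD11b+ DCs (4 also in that block). In LN CD11b+ minus splenic CD8+ DCs, not taken as paired, they were 7 and not 4 (43.5% of all genes, beside 39.9% without the block). LNs and spleens came from different cohorts, so LN and splenic libraries share only a number, and pairing was read from the correlations alone. Fos in LN CD103+ minus splenic CD8+ DCs, also not taken as paired, gave -0.76 with the block (adjusted p 0.00238). The block changed no other member count by over 1.5 times. Without a filter the first 2 counts were 7 and 5. With the fold requirement LN CD11b+ minus splenic CD4+ DCs gave 2, as did a fit of those subtypes alone, and LN CD103+ minus splenic CD4+ DCs gave 3 of 5. For splenic CD8+ minus CD4+ DCs limma gave 1 with either pseudocount, and 1 remained without the DC libraries numbered 3. For the interaction limma gave 1 and 0 with pseudocounts of 1 and 0.1, and 1 passed without those libraries. Leaving out 1 library gave 4 to 7 in DC1, 3 to 6 in DC2, 1 to 2 between splenic lineages, 1 to 3 between LN lineages, 1 to 3 in the interaction, 8 to 8, 7 to 8, 5 to 6 and 6 to 8 in monocytes against splenic CD8+, splenic CD4+, LN CD103+ and LN CD11b+ DCs, 4 to 5 in LN CD103+ minus splenic CD4+ DCs, 3 to 5 in LN CD11b+ minus splenic CD8+ DCs and 8 to 9 in the F test. In the lists, AP-1 partners in monocytes minus LN CD11b+ DCs (5) gave 3 with the fold requirement, 8 with the block, 8 in the fit of 2 subtypes and 2 to 7 on leaving out 1 library, and in LN CD11b+ minus splenic CD4+ DCs (4) gave 2 with the fold requirement and 2 to 6. The fold requirement left 3, 2, 5 and 4 inducing factors in the comparisons with monocytes and 3 in LN CD11b+ minus splenic CD4+ DCs (3 also in the fit of 2 subtypes), and 4 heat shock genes in monocytes minus splenic CD4+ DCs. Heat shock genes gave 3 to 6 in LN CD11b+ minus splenic CD4+ DCs. Egr1 in monocytes minus LN CD103+ DCs, not called, ranged from -0.24 to 0.56 on leaving out 1 library, and Dusp1 in monocytes minus splenic CD4+ DCs lost its call with RLE size factors. The causes were not tested. The variance between replicates was 5.09 to 53.6 times that of counting over the genes compared, and whether more depth would change a call was not tested.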
